A study of Mus musculus with 9 samples.

Results

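The lysyl oxidases and the collagen lysyl and prolyl hydroxylases were compared between HC11 strains that express different variants of the transcriptional regulator Mkl1. The group was defined by name as 10 genes, namely Lox, Loxl1, Loxl2, Loxl3, Loxl4, Plod1, Plod2, Plod3, P4ha1 and P4ha2. A gene was measured where a probeset of the array is annotated to that gene alone, and the probeset with the highest mean over the arrays was used. This left 9 of the 10 genes, out of 19937 genes with such a probeset in the series. Loxl2 is not analysed here, because its probeset is also annotated to another gene. HC11 is a mammary epithelial cell line from mid-pregnancy BALB/c mice. HC11-ΔSAP cells express Mkl1-RFP lacking the SAP domain, HC11-mutB1 cells an Mkl1-RFP whose site of interaction with SRF (serum response factor) is mutated, and HC11-FL control cells the full length Mkl1-RFP, where RFP is a red fluorescent protein tag. All 3 strains therefore carry an Mkl1 construct besides the endogenous gene, and each is 1 stably transfected population sorted for RFP. They were kept for 48 h in medium with 0.03% FCS and no EGF, and 3 cultures per strain were arrayed.

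Fibrillar collagen is modified before and after it leaves the cell. In the endoplasmic reticulum, prolyl 4-hydroxylases stabilise the triple helix by hydroxylating prolines, and lysyl hydroxylases (Plod genes) modify lysines that are later glycosylated or used in cross-links. Outside the cell, lysyl oxidases are copper-dependent amine oxidases that convert lysine and hydroxylysine side chains of collagen and elastin to aldehydes, from which the cross-links form that make a matrix stiff. In the mammary gland these enzymes are best known from the stroma, and in breast tumors from collagen stiffening.

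The deposited values are log2 expression levels from the authors' RMA normalization, in which a difference of 1 is a 2-fold change. Array medians lay between 4.53 and 4.60, and a level of 4 served as the expression minimum. All 8 mammary epithelial marker genes had group means of at least 4 in every strain, against 0 of 5 endothelial, 2 of 5 leukocyte and 1 of 3 adipocyte markers. The levels of the 8 epithelial markers differed between strains (limma, adjusted p of at most 0.01, without a fold minimum). Relative to HC11-FL, 5 fell and 3 rose in HC11-ΔSAP cells, and 3 fell and 4 rose in HC11-mutB1 cells. The basal keratin Krt5 had log2 fold changes of -1.90 in HC11-ΔSAP and 1.15 in HC11-mutB1 cells, the luminal keratin Krt18 of -1.36 and -0.65, and the claudin Cldn7 of -0.89 and -1.98, all past the threshold. Of 8 fibroblast markers 7 had group means of at least 4 in every strain. Their summed linear signal over all 8 was 530 to 546 in HC11-ΔSAP, 426 to 465 in HC11-mutB1 and 498 to 507 in HC11-FL cells. In HC11-ΔSAP cells 2 of the fibroblast markers stood above their HC11-FL level, Dcn and Twist2 (by 1.81 and 1.25 on the log2 scale, adjusted p = 2e-07 and 8.7e-05), and 2 below it, Pdgfra and Pdgfrb (log2 fold change -0.42 and -0.38, adjusted p = 0.0059 and 0.0076). The median over the 8 was -0.04, and Lum lay under the minimum. In HC11-mutB1 cells 2 were lower and 1 higher, and the shares of all probesets are those given above. The Mkl1 probeset, which does not separate construct from endogenous transcript, averaged 9.47 ± 0.07 in HC11-ΔSAP, 9.83 ± 0.07 in HC11-mutB1 and 9.95 ± 0.11 in HC11-FL cells (mean ± SD, n = 3). Relative to HC11-FL it was lower in HC11-ΔSAP cells (limma, log2 fold change -0.48, adjusted p = 0.0018). In HC11-mutB1 cells it did not pass (-0.12, adjusted p = 0.31). The part of these marker and Mkl1 levels in the results below was not tested. In RNA of whole cultures, fewer cells with a transcript and less of it per cell cannot be told apart, and no strain with an empty vector was among the arrays.

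Of the 9 measured genes, 4 fell and 1 rose in HC11-ΔSAP relative to HC11-FL control cells (limma, threshold of 0.01 on the adjusted p, without a fold minimum). Of all 34760 probesets on the array, 6.02% were lower and 7.1% higher by this rule. Among the 20286 probesets with a mean of at least 4, to which all 9 genes belong, these shares were 10.1% and 11.9%. In HC11-mutB1 cells 4 genes fell and 3 rose, where 5.04% of all probesets were lower and 7.1% higher (8.32% and 11.9% of those with a mean of at least 4). The HC11-FL arrays are shared by these comparisons. Set directly against HC11-mutB1, HC11-ΔSAP cells had 2 genes at a lower and 2 at a higher level, against 5.04% and 4.34% of all probesets (8.45% and 7.25% of those with a mean of at least 4). The median log2 fold change of the 9 genes was -0.03 in HC11-ΔSAP and -0.12 in HC11-mutB1 cells relative to HC11-FL, beside -0.005 and -0.01 for all probesets.

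The filters of the study's methods add a fold of at least 2 and the expression minimum. By these, 3 genes fell and 0 rose in HC11-ΔSAP cells (0.883% and 0.872% of all probesets, 1.51% and 1.49% of those with a mean of at least 4), and 3 fell and 1 rose in HC11-mutB1 cells (0.705% and 0.964%, and 1.21% and 1.65%). Set against HC11-mutB1 cells, HC11-ΔSAP cells had 0 genes at a lower and 2 at a higher level (0.993% and 0.676%, and 1.7% and 1.16%). In an exact permutation test of single genes (two-sided, 3 against 3 arrays) no p can fall below 0.1. This value was reached by the 6, 9 and 7 genes whose arrays did not overlap, in HC11-ΔSAP against HC11-FL, HC11-mutB1 against HC11-FL and HC11-ΔSAP against HC11-mutB1 cells. Such a lack of overlap was found in 30.3%, 31.3% and 29.4% of all probesets and in 45.8%, 46.7% and 43.9% of those with a mean of at least 4.

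**Figure D1:**
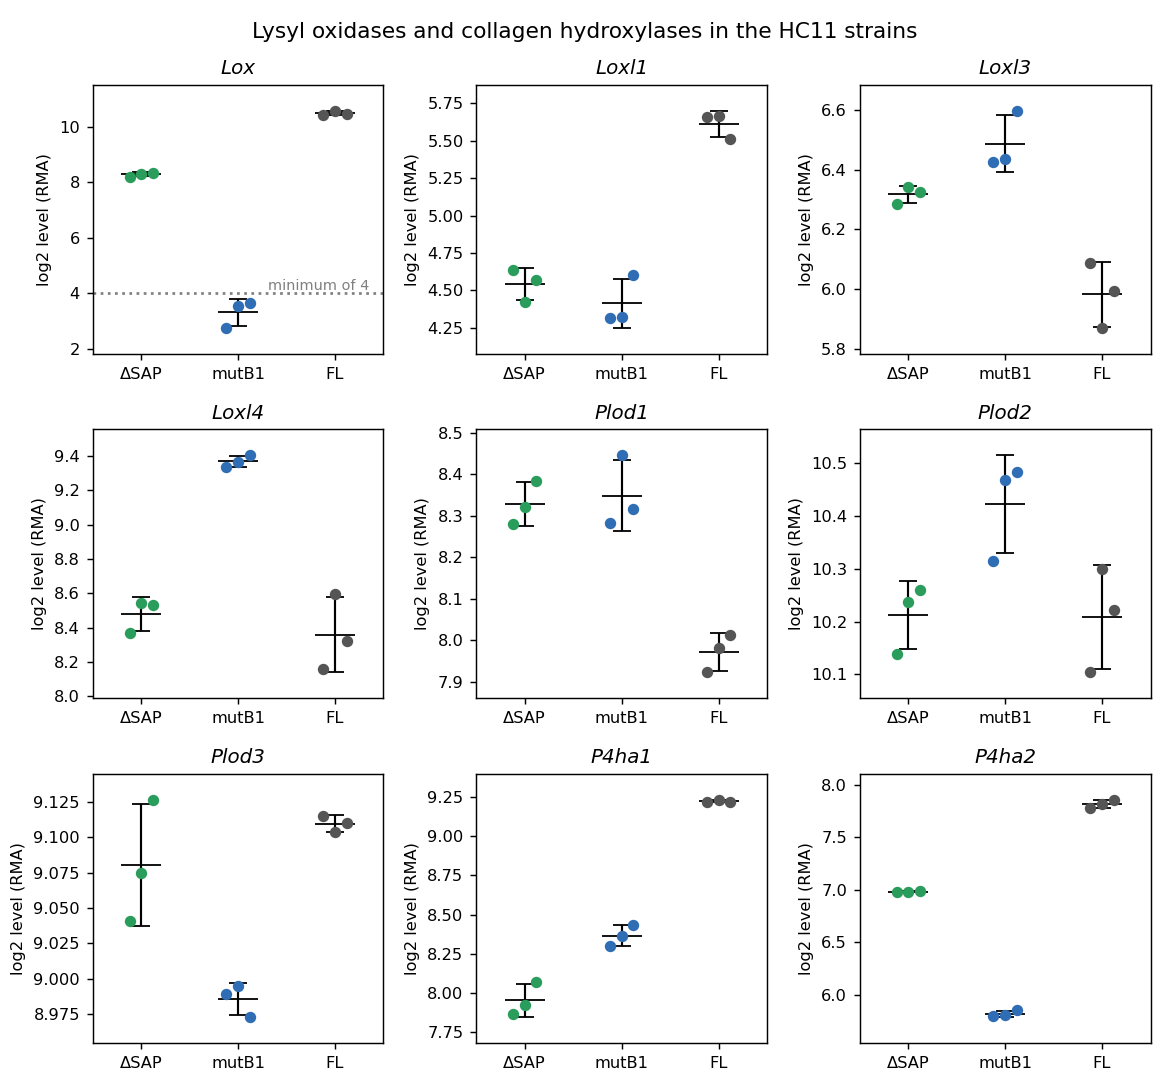
Log2 expression level (RMA) of the 9 measured genes in each array, with 1 panel per gene and its own y-axis. Points are arrays and black bars the mean ± SD of 3 cultures. Lox, Loxl1, P4ha1 and P4ha2 lie below HC11-FL in every array of both mutant strains, and the HC11-mutB1 arrays of Lox lie under the expression minimum of 4.

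Lox encodes lysyl oxidase, the founding member of the family. It lay at 8.20, 8.30 and 8.34 in the HC11-ΔSAP arrays and at 2.75, 3.55 and 3.63 in the HC11-mutB1 arrays, against 10.41, 10.57 and 10.47 in the HC11-FL arrays. The strains did not overlap, and the levels formed an order in which HC11-mutB1 was lowest, HC11-ΔSAP intermediate and HC11-FL highest. Within its own array, the Lox signal stood at percentile 82.8 to 83.7 of all probesets in HC11-ΔSAP cells, at percentile 12.8 to 35.2 in HC11-mutB1 cells and at percentile 96.9 to 97.2 in HC11-FL cells. The difference to HC11-FL was -2.20 on the log2 scale in HC11-ΔSAP cells (SE 0.21, adjusted p = 0.00016) and -7.17 in HC11-mutB1 cells (SE 0.21, adjusted p = 3.6e-07). All HC11-mutB1 values lay under the expression minimum, where the signal is close to background. With this strain set at the minimum, Lox in HC11-mutB1 cells was at least 89.4-fold lower than in HC11-FL cells. Between the mutant strains, HC11-ΔSAP cells had the higher Lox level, by 4.97 on the log2 scale (SE 0.21, adjusted p = 2.9e-06), or at least 19.4-fold with the same floor. The HC11-mutB1 arrays spread more than the others, with an SD of 0.49 against 0.07 in HC11-ΔSAP and 0.08 in HC11-FL cells, and replicate 1 was the lowest of the 3.

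Loxl1, an enzyme of elastic fibre assembly, was lower in both mutant strains. Its levels were 4.64, 4.43 and 4.57 in HC11-ΔSAP arrays and 4.32, 4.32 and 4.60 in HC11-mutB1 arrays, against 5.66, 5.66 and 5.51 in HC11-FL arrays. All mutant arrays lay below all HC11-FL arrays, and not far above the expression minimum. The log2 fold change was -1.07 in HC11-ΔSAP (SE 0.09, adjusted p = 0.00011) and -1.20 in HC11-mutB1 cells (SE 0.09, adjusted p = 6.7e-05), both past the fold minimum. Unlike for Lox, the arrays of both mutant strains overlapped, and their difference of 0.13 (95% confidence interval -0.09 to 0.35, adjusted p = 0.48) did not pass the test.

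The other measured lysyl oxidases were not lower in either mutant strain. Loxl4, a family member with scavenger receptor domains, lay at 8.37, 8.54 and 8.53 in HC11-ΔSAP and at 9.34, 9.37 and 9.40 in HC11-mutB1 arrays, against 8.16, 8.59 and 8.32 in HC11-FL arrays. HC11-mutB1 stood above both other strains, which overlapped. Loxl4 rose 2.01-fold in HC11-mutB1 compared to HC11-FL cells (log2 fold change 1.01, SE 0.11, adjusted p = 0.0003), whereas HC11-ΔSAP cells differed by 0.12 (95% confidence interval -0.12 to 0.37, adjusted p = 0.56). In the direct comparison of HC11-ΔSAP with HC11-mutB1 cells it was lower in the ΔSAP strain (-0.89, SE 0.11, adjusted p = 0.00074). The gene has another probeset of its own, which averaged 8.16 in HC11-ΔSAP, 8.98 in HC11-mutB1 and 7.97 in HC11-FL cells and gave log2 fold changes of 0.19 in HC11-ΔSAP (adjusted p = 0.02) and 1.01 in HC11-mutB1 cells (adjusted p = 2.7e-06). As the fold is close to 2, Loxl4 missed the fold minimum without HC11-FL replicate 1 (log2 fold change 0.91), HC11-FL replicate 3 (0.99) or HC11-mutB1 replicate 3 (0.99), but kept an adjusted p under 0.01 in all of these.

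Loxl3, which in mice is needed for palate and spine development, changed by less. Its levels were 6.29, 6.34 and 6.33 in HC11-ΔSAP and 6.43, 6.44 and 6.60 in HC11-mutB1 arrays, against 6.09, 5.87 and 5.99 in HC11-FL arrays. All arrays of both mutant strains lay above those of HC11-FL. The 1.42-fold rise in HC11-mutB1 cells passed (log2 fold change 0.50, SE 0.07, adjusted p = 0.0014). In HC11-ΔSAP cells the difference was 0.33 (SE 0.07, adjusted p = 0.011), which passed without HC11-FL replicate 1 (adjusted p = 0.009) or HC11-mutB1 replicate 3 (adjusted p = 0.0088).

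**Figure D2:**
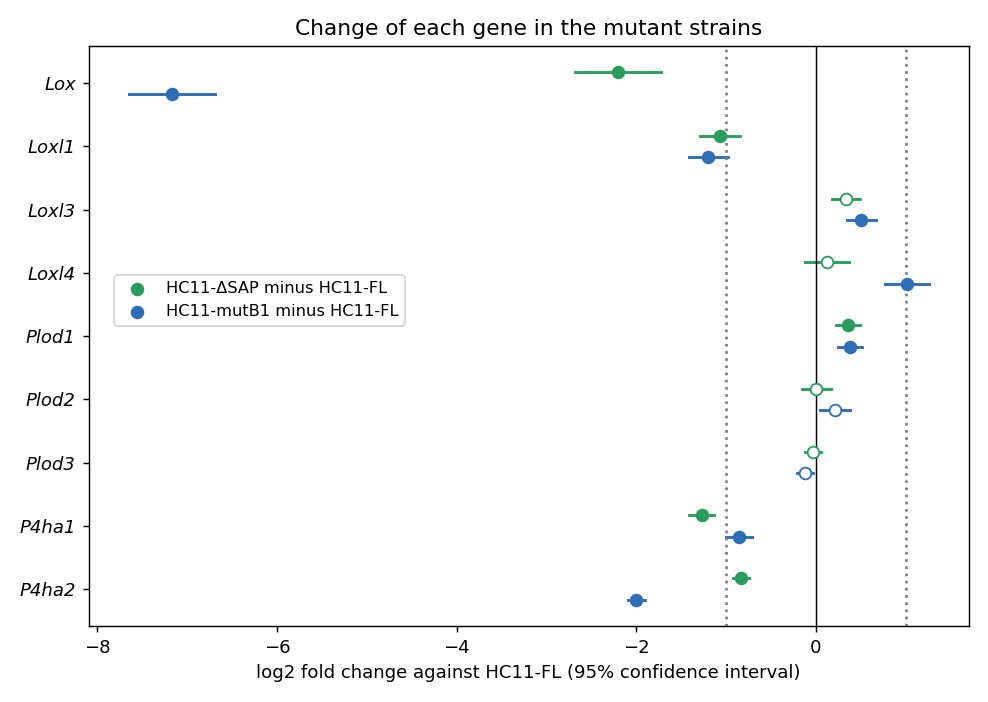
Log2 fold change of each gene in HC11-ΔSAP (green, upper point) and HC11-mutB1 cells (blue, lower point) against HC11-FL cells, with 95% confidence intervals from limma. Filled points have an adjusted p of at most 0.01 and dotted lines mark a 2-fold change. Lox in HC11-mutB1 cells is drawn at its measured -7.17, but as this strain lies under the expression minimum the change is only known to be at least 89.4-fold, and the Plod genes lie within 0.4 of 0.

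Of the lysyl hydroxylases, only Plod1 passed the test, in both comparisons with HC11-FL. Plod1, which hydroxylates lysines of the collagen helix, was higher in both mutant strains, at 8.28, 8.32 and 8.38 in HC11-ΔSAP and 8.28, 8.45 and 8.32 in HC11-mutB1 arrays, against 7.92, 7.98 and 8.01 in HC11-FL arrays. Mutant and HC11-FL arrays did not overlap, whereas the mutant strains overlapped each other. The log2 fold change was 0.36 in HC11-ΔSAP (SE 0.06, adjusted p = 0.0027) and 0.38 in HC11-mutB1 cells (SE 0.06, adjusted p = 0.0022). The call in HC11-ΔSAP cells was lost without HC11-FL replicate 1 (adjusted p = 0.012), HC11-FL replicate 2 (0.01, just above the threshold), HC11-ΔSAP replicate 2 (0.012) or HC11-ΔSAP replicate 3 (0.013). Plod2, which hydroxylates lysines in collagen telopeptides, lay between 10.14 and 10.26 in HC11-ΔSAP, between 10.31 and 10.48 in HC11-mutB1 and between 10.10 and 10.30 in HC11-FL arrays. Plod3, which also has glycosyltransferase activity, averaged 9.08 ± 0.04 in HC11-ΔSAP, 8.99 ± 0.01 in HC11-mutB1 and 9.11 ± 0.006 in HC11-FL cells (SD, n = 3). Neither gene passed in any comparison. For Plod2 the difference to HC11-FL was 0.003 in HC11-ΔSAP (95% confidence interval -0.16 to 0.17) and 0.21 in HC11-mutB1 cells (0.05 to 0.38, adjusted p = 0.079). For Plod3 it was -0.03 in HC11-ΔSAP (-0.12 to 0.06) and -0.12 in HC11-mutB1 cells (-0.21 to -0.03, adjusted p = 0.067).

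P4ha1 and P4ha2 encode alternative catalytic alpha subunits of prolyl 4-hydroxylase, and both were lower in both mutant strains, but with the strains in opposite order. The promoter windows of both genes are shown because both genes fell in both strains, and run from 250 bases before to 50 after an annotated start. The sequences are from RefSeq, assembly GRCm38.p6, at chr10:59323046-59323345 for P4ha1 and chr11:54100674-54100973 for P4ha2, both on the plus strand. Capitals mark ACGTG or GCGTG on either strand, the core letters of hypoxia response elements, read as CACGT or CACGC where the match is on the other strand.
P4ha1: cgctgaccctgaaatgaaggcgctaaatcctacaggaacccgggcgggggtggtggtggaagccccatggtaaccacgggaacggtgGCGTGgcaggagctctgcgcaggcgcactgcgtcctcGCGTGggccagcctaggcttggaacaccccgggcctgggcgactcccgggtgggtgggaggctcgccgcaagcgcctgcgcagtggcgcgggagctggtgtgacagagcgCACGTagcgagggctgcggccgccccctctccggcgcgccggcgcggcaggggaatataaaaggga
P4ha2: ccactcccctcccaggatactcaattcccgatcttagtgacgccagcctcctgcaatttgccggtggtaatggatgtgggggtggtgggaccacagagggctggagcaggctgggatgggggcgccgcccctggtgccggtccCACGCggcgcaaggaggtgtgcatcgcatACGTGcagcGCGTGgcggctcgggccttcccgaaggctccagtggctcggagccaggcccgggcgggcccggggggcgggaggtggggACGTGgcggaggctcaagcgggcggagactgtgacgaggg
The P4ha1 window holds 1 match to ACGTG and 2 to GCGTG, and the P4ha2 window 2 and 2. At least 1 of these matches was found in 43.8% of 32851 mouse promoter windows of this length. The windows of Plod1 with 2, Plod3 with 4 and Loxl4 with 1 match also held them. A CArG box, the sequence bound by SRF, was found in none of these 5 windows and in 1.63% of all windows. Lox, Loxl1, Loxl2, Loxl3 and Plod2 were left out of this search, so the absence does not cover them. Whether Lox and Loxl1, which also fell in both strains, hold a CArG box was not tested.

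P4ha1 lay at 7.86, 7.92 and 8.07 in HC11-ΔSAP and at 8.30, 8.36 and 8.44 in HC11-mutB1 arrays, against 9.22, 9.23 and 9.22 in HC11-FL arrays. No arrays of different strains overlapped, and HC11-ΔSAP was lowest. The fold reduction was 2.42 in HC11-ΔSAP (log2 fold change -1.27, SE 0.06, adjusted p = 5.1e-06). In HC11-mutB1 cells it was 1.81 and thus under the fold minimum (-0.86, SE 0.06, adjusted p = 4.1e-05). The direct comparison gave -0.41 for HC11-ΔSAP minus HC11-mutB1 (SE 0.06, adjusted p = 0.0026). This call was lost in a fit of only these strains (adjusted p = 0.015) and without HC11-mutB1 replicate 2 (0.012), HC11-mutB1 replicate 3 (0.012) or HC11-ΔSAP replicate 2 (0.014).

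P4ha2 lay at 6.98, 6.98 and 6.99 in HC11-ΔSAP and at 5.80, 5.81 and 5.85 in HC11-mutB1 arrays, against 7.78, 7.82 and 7.86 in HC11-FL arrays. Here HC11-mutB1 was lowest and HC11-ΔSAP intermediate, again without overlap. The fold reduction was 1.78 in HC11-ΔSAP (log2 fold change -0.83, SE 0.04, adjusted p = 4.7e-06), short of the fold minimum. In HC11-mutB1 cells it was 4.00 (-2.00, SE 0.04, adjusted p = 7.8e-08). HC11-ΔSAP minus HC11-mutB1 gave 1.17 on the log2 scale (SE 0.04, adjusted p = 1.1e-06). The deposited P4ha2 values of HC11-ΔSAP replicates 1 and 2 are identical, so the spread in this strain may be understated. A value shared by 2 or more arrays, of the same or of different strains, occurs in 15714 probesets (45.2%) but in no other of the 9 genes.

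Partners of these enzymes in collagen processing were examined as a list of 24 genes, of which 22 were measured. Relative to HC11-FL, 4 fell and 6 rose in HC11-ΔSAP cells, and 3 fell and 3 rose in HC11-mutB1 cells. Of all probesets 6.02% fell and 7.1% rose in HC11-ΔSAP cells (10.1% and 11.9% of those with a mean of at least 4), and 5.04% and 7.1% in HC11-mutB1 cells (8.32% and 11.9%). The 3 of 22 that rose in HC11-mutB1 cells are close to the 11.9%, and the 3 that fell lie somewhat above the 8.32%. The 4 that fell in HC11-ΔSAP cells were 2 to 4 over the alternatives. The median log2 fold change of the list was 0.02 in HC11-ΔSAP and -0.03 in HC11-mutB1 cells, and that of all probesets was -0.005 and -0.01. P4hb, the beta subunit that completes the prolyl 4-hydroxylase, was higher where these alpha subunits were lower. It averaged 12.17 in HC11-ΔSAP and 12.06 in HC11-mutB1 cells, against 11.67 in HC11-FL cells, and was thus higher by 0.50 (SE 0.04, adjusted p = 9.3e-05) and by 0.39 (SE 0.04, adjusted p = 0.00038). P4ha3, the remaining alpha subunit, differed by 0.19 and 0.11 and did not pass (adjusted p = 0.13 and 0.38).

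**Figure D3:**
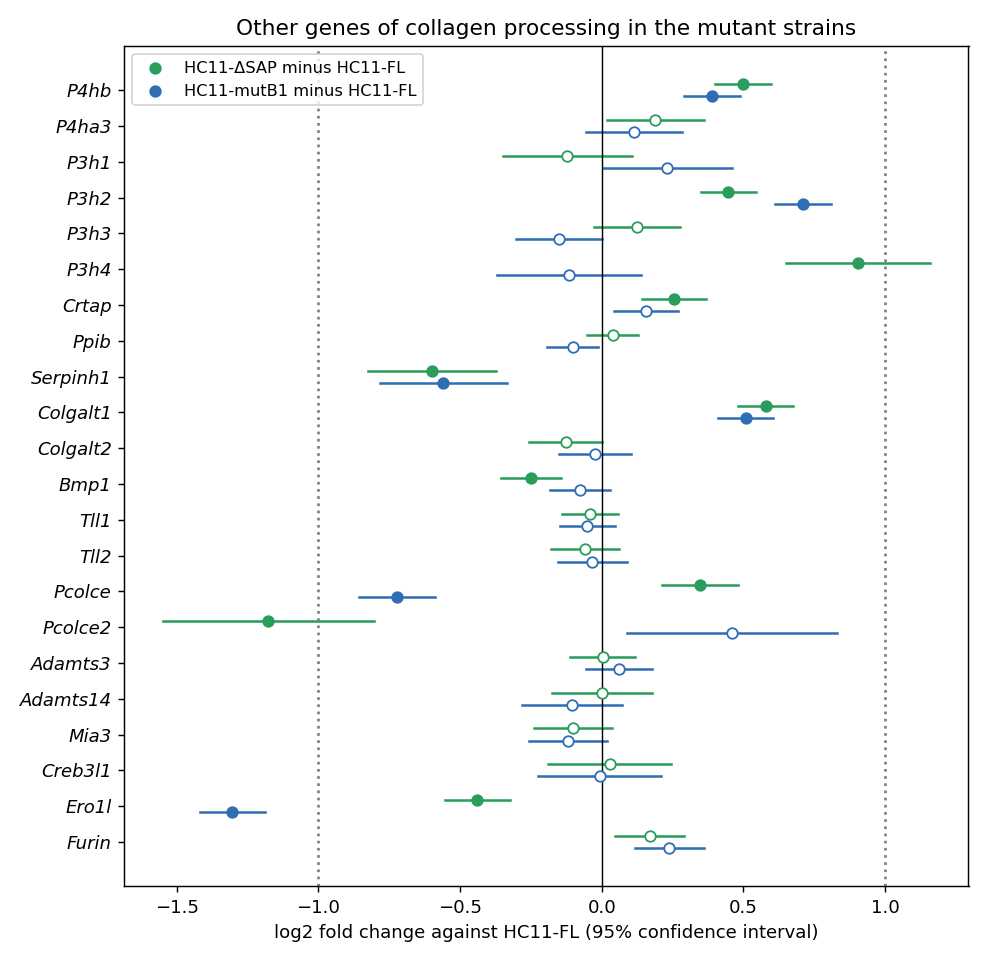
Log2 fold change of 22 other genes of collagen processing in HC11-ΔSAP (green, upper point) and HC11-mutB1 cells (blue, lower point) against HC11-FL cells, with 95% confidence intervals from limma. Filled points have an adjusted p of at most 0.01 and dotted lines mark a 2-fold change. P4hb lies right of 0 in both strains, and Pcolce lies right of 0 in HC11-ΔSAP and left of 0 in HC11-mutB1 cells.

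Among other enzymes of the endoplasmic reticulum, the prolyl 3-hydroxylase P3h2 rose by 0.45 in HC11-ΔSAP and 0.71 in HC11-mutB1 cells (adjusted p = 0.00016 and 1.4e-05), and Colgalt1, a galactosyltransferase for hydroxylysine, by 0.58 and 0.51 (adjusted p = 4e-05 and 8.6e-05). P3h4, a component of the lysyl hydroxylase complex, was higher in HC11-ΔSAP cells by 0.91 (SE 0.11, adjusted p = 0.00063) and differed by -0.12 in HC11-mutB1 cells (adjusted p = 0.57). Its direct difference of 1.02 between HC11-ΔSAP and HC11-mutB1 cells passed (adjusted p = 0.00044). The oxidase Ero1l, which supports disulphide formation, had log2 fold changes of -0.44 in HC11-ΔSAP and -1.30 in HC11-mutB1 cells (adjusted p = 0.00042 and 1.4e-06). Serpinh1, the collagen chaperone Hsp47, was lower by 1.51-fold in HC11-ΔSAP and 1.47-fold in HC11-mutB1 cells (adjusted p = 0.0029 and 0.0045), calls that were lost in 5 and 7 of 15 alternatives.

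The procollagen C-proteinase enhancers moved apart between the mutant strains. Pcolce averaged 8.44 in HC11-ΔSAP and 7.38 in HC11-mutB1 cells, against 8.10 in HC11-FL cells, and the direct difference between the mutants was 1.07 (SE 0.06, adjusted p = 1e-05). Pcolce2 averaged 5.14 in HC11-ΔSAP and 6.78 in HC11-mutB1 cells, against 6.32 in HC11-FL cells, with a direct difference of -1.64 (SE 0.16, adjusted p = 0.00026). Against HC11-FL, Pcolce2 fell by 1.18 on the log2 scale in HC11-ΔSAP cells (SE 0.16, adjusted p = 0.0012), and its difference in HC11-mutB1 cells missed the threshold (0.46, adjusted p = 0.095). Pcolce was higher in HC11-ΔSAP cells by 0.35 (adjusted p = 0.0035), a call lost in 6 of 15 alternatives, and lower in HC11-mutB1 cells by 1.65-fold (adjusted p = 7.4e-05).

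Of 19 measured substrates and fibre partners of the enzymes, 1 fell and 6 rose in HC11-ΔSAP relative to HC11-FL cells, and 1 fell and 7 rose in HC11-mutB1 cells. Of all probesets 6.02% fell and 7.1% rose in HC11-ΔSAP cells (10.1% and 11.9% of those with a mean of at least 4). In HC11-mutB1 cells 5.04% fell and 7.1% rose (8.32% and 11.9%). The 7 that rose in HC11-mutB1 cells were 5 to 7 over the alternatives. The gene that fell in HC11-ΔSAP cells, Postn, lost its call in 12 of 15 alternatives, among them the omission of any single array. The median log2 fold change of this list was 0.01 in HC11-ΔSAP and 0.03 in HC11-mutB1 cells. Fbln5, which brings lysyl oxidases to elastic fibres, averaged 9.02 in HC11-ΔSAP and 6.61 in HC11-mutB1 cells, against 5.98 in HC11-FL cells, and rose 8.23-fold in the ΔSAP strain (adjusted p = 6.8e-07). Col6a1, a chain of microfibrillar collagen, rose 2.49-fold in HC11-ΔSAP and 3.84-fold in HC11-mutB1 cells (adjusted p of 1.3e-06 and 2.3e-07), and the basement membrane chain Col4a2 1.58-fold and 1.83-fold (adjusted p = 4.9e-05 and 1.1e-05). Decorin (Dcn), a proteoglycan that binds collagen fibrils and one of the fibroblast markers above, had log2 fold changes of 1.81 in HC11-ΔSAP (adjusted p = 2e-07) and -0.48 in HC11-mutB1 cells (adjusted p = 0.00014). The cartilage collagen gene Col2a1 rose in HC11-mutB1 cells, with a log2 fold change of 1.17, and its value of -0.20 in HC11-ΔSAP cells did not pass. The elastin gene Eln and the fibrillar collagen genes Col1a1 and Col3a1 did not pass in any comparison, with log2 fold changes between -0.23 and 0.04.

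P4ha1, P4ha2, Plod1, Plod2, Lox and Loxl2 are known targets of hypoxia-inducible factors, and other targets were counted beside them. P4ha1, P4ha2 and Lox fell in both mutant strains. Plod1 rose in both, by 0.36 in HC11-ΔSAP and 0.38 in HC11-mutB1 cells on the log2 scale. Plod2 did not pass, with differences of 0.003 and 0.21. Of 19 measured hypoxia targets, 13 fell and 0 rose in HC11-ΔSAP relative to HC11-FL cells, and 11 fell and 1 rose in HC11-mutB1 cells. Of all probesets 6.02% fell and 7.1% rose in HC11-ΔSAP cells (10.1% and 11.9% of those with a mean of at least 4), and 5.04% fell and 7.1% rose in HC11-mutB1 cells (8.32% and 11.9%). The median log2 fold change was -0.56 in HC11-ΔSAP and -0.30 in HC11-mutB1 cells. The mitophagy gene Bnip3 had log2 fold changes of -2.11 in HC11-ΔSAP and -1.48 in HC11-mutB1 cells, and the kinase gene Pdk1 of -1.38 and -0.70. For both, HC11-ΔSAP was the lower strain, as for P4ha1 (direct difference -0.64, adjusted p = 5.9e-05, and -0.68, adjusted p = 0.00059). For P4ha2 and Lox HC11-ΔSAP was the higher strain, by 1.17 on the log2 scale and by at least 19.4-fold. In this direct comparison 8 of the 19 hypoxia targets were lower in HC11-ΔSAP cells and 1 was higher. Of all probesets 5.04% were lower and 4.34% higher there (8.45% and 7.25% of those with a mean of at least 4). The adenylate kinase gene Ak4 had log2 fold changes of -1.79 in HC11-ΔSAP and -1.81 in HC11-mutB1 cells, and the glycolytic gene Pfkl of -1.55 and -1.16. Vegfa was higher by 0.40 in HC11-mutB1 cells (adjusted p = 0.001). The oxygen-sensing prolyl hydroxylase Egln1 was lower by 1.29-fold in HC11-ΔSAP and 1.38-fold in HC11-mutB1 cells (adjusted p = 0.00049 and 0.00016), and no other of the 6 other hydroxylases passed against HC11-FL. Egln3, another member of that group, stands in both lists. The part of these genes in the levels of P4ha1, P4ha2, Lox, Plod1 or Plod2 was not tested.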

How the data were processed

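RNA of 3 HC11 strains with 3 cultures each was hybridised to Affymetrix Mouse Gene 1.0 ST arrays. The authors deposited log2 expression values of 34760 probesets, which they had obtained by RMA with the affy package (R 2.10.0 per the submitters' processing notes). This procedure subtracts background and equalises the distributions of all arrays, so a shift common to all genes of an array is removed. Scans were not used here, and the number of arrays limits the precision.

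Gene names come from the platform's annotation, with 21640 probesets that carry a single symbol, 1321 that carry several and 11799 without one in the table used. For each probeset, limma 3.58.1 (R 4.3.3) was fitted to all 9 arrays together, with the mean of every strain as a term and a spread estimated over the strains (6 residual and 1.93 prior degrees of freedom). Benjamini-Hochberg adjustment covered all probesets, and thresholds followed the study's methods. The scripts were tested on simulated data. P-values measure the spread between cultures of 1 strain, not between independently made strains. Promoter windows were searched in Python 3.11.15.

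The genes and lists were chosen with earlier results of these data known. Genes named in the text are the 10 genes of the group, genes among the 4 with the largest change of each list and comparison, Mkl1, and the 3 genes nearest in pattern to Loxl1, P4ha1 and P4ha2. Crtap, Bmp1, Postn, Eln, Col1a1, Col3a1, P4hb, P4ha3, Krt5, Krt18, Pdgfra, Pdgfrb, Lum and Twist2 were named after their values were seen. Alternatives were other fits, filters and thresholds and the omission of single arrays.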

Additional observations from a re-analysis of the deposited data

How the results depend on the processing

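The alternatives were a fit of only the strains compared, the replicate number as a block, arrays centred again on their medians, only probesets with a mean of at least 4, trend and robust moderation, array weights, the mean of all probesets of a gene, each array left out in turn, and other thresholds. Of 408 recomputed differences of the 9 genes, 391 kept their direction and their side of the threshold, 8 lost a call, 4 gained one and 5 changed sign. Those 5 were not called to begin with and came from leaving out an array, which gave -0.052 to 0.029 for Plod1 in HC11-ΔSAP minus HC11-mutB1 and -0.049 to 0.049 for Plod2 in HC11-ΔSAP minus HC11-FL. No difference of Lox, Loxl1, Loxl4 or P4ha2 changed its call at any fold.

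The 1 gene that rose in HC11-ΔSAP relative to HC11-FL cells, Plod1, became 2 with Loxl3 at an adjusted p of 0.05, with array weights and with only probesets of a mean of at least 4, and 0 to 2 with an array left out. The 2 genes lower in HC11-ΔSAP relative to HC11-mutB1 became 1 when the HC11-FL arrays were left out, and 1 to 2 with an array left out. By all filters, the 1 gene that rose in HC11-mutB1 relative to HC11-FL cells was 0 to 1 with an array left out. With a fold of at least 1.5, 1 gene was lower in HC11-ΔSAP relative to HC11-mutB1 by all filters, against 0 at the fold of 2.

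With the replicate number as a block, 4 genes fell and 1 rose in HC11-ΔSAP relative to HC11-FL cells, and no call of the 9 genes changed. Whether the numbers pair the cultures is not settled by the values. The deviations of arrays with the same number correlated between -0.11 and 0.26, above 0.1 in 3 of 9 pairs. Those 3 were the pairs of replicate 1 (0.12, 0.26 and 0.11), so a shared effect of replicate 1 is possible. Arrays with different numbers correlated between -0.26 and 0.23. Under the block, 2 in place of 4 processing partners fell in HC11-ΔSAP relative to HC11-FL cells, and the fibre partner lower there, Postn, was not called.

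Counts in the gene lists changed by over 1.5-fold in 46 of 360 recomputations. Over all alternatives, 2 to 4 processing partners and 12 to 13 hypoxia targets fell in HC11-ΔSAP relative to HC11-FL cells, and 10 to 12 hypoxia targets in HC11-mutB1 cells. Calls of Crtap, Bmp1 and Postn in HC11-ΔSAP cells were lost in 11, 10 and 12 of 15 alternatives, and of Serpinh1 in HC11-ΔSAP cells without HC11-FL replicate 3, HC11-ΔSAP replicate 1 or HC11-ΔSAP replicate 3.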

Other observations

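The genes whose pair of log2 fold changes against HC11-FL lay nearest to that of a lysyl oxidase or hydroxylase were searched among 13157 genes with a mean of at least 4, as a distance over the 3 strain means. No nearest gene is given for Lox, because the HC11-mutB1 arrays were all under the minimum level of 4 for it and its distances to other genes are not fixed. The nearest genes to Loxl1 were Ankrd55, Lix1l and the secreted glycoprotein gene Fstl1, at distances of 0.041 to 0.058 on the log2 scale. Nearest to P4ha1 were Dtx4, the lysosomal cholesterol transport gene Npc2 and L3mbtl3, at 0.082 to 0.13. Nearest to P4ha2 were the claudin Cldn7, Rragb and the triglyceride synthesis gene Dgat2, at 0.063 to 0.18, and Cldn7 had log2 fold changes of -0.89 in HC11-ΔSAP and -1.98 in HC11-mutB1 cells. With 3 strain means such distances only describe these arrays.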
